A study of Mus musculus with 8 samples.

Results

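Amino acid carriers of the plasma membrane were followed in DN3 thymocytes with and without Sel1l. The group held 10 genes of the 16538 in the deposited expression table: Slc7a1, Slc7a3, Slc7a5, Slc7a6, Slc7a11, Slc3a2, Slc1a4, Slc1a5, Slc38a1 and Slc38a2. They were chosen by symbol as carriers that bring amino acids into the cell, with earlier results of these data known. All 10 symbols were in the table. DN3 thymocytes are CD4- CD8- CD44- CD25+ T-cell precursors at the step where a rearranged T-cell receptor β chain is tested (β-selection). RNA-seq was done on sorted DN3 cells of C57BL/6 mice aged 6 weeks, from 4 Ctrl and 4 Sel1l CKO samples. Both genotypes carried homozygous floxed Sel1l alleles (Sel1l-f/f). The Sel1l CKO mice also carried the hCD2cre transgene, a Cre recombinase under the human CD2 promoter that acts in the lymphoid lineage from early T-cell progenitors on, and the Ctrl mice had no Cre. SEL1L is the adaptor of the HRD1 ubiquitin ligase in ER-associated degradation (ERAD), which clears misfolded proteins from the endoplasmic reticulum.

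Each of these carriers moves a set of amino acids. SLC7A5, SLC7A6 and SLC7A11 are light chains that reach the surface only as a disulfide-linked pair with the heavy chain SLC3A2 (CD98, 4F2hc), and they exchange large neutral amino acids, cationic and neutral amino acids, and cystine against glutamate. SLC7A1 and SLC7A3 take up arginine and lysine without a partner, SLC1A4 and SLC1A5 exchange alanine, serine, cysteine and, for SLC1A5, glutamine, and SLC38A1 and SLC38A2 bring in glutamine and other small neutral amino acids with sodium. In many cells the transcription factor ATF4, made when eIF2α is phosphorylated by PERK, GCN2 and related kinases, binds C/EBP-ATF response elements (CARE) and raises transcription of carriers and of enzymes of amino acid synthesis, while T cells that start to grow are known for high SLC7A5, SLC3A2 and SLC1A5.

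The carriers split by genotype. Slc7a3, Slc7a5, Slc3a2 and Slc7a1 were higher in Sel1l CKO, Slc1a4 and Slc7a11 had few reads in Ctrl and more in Sel1l CKO, and Slc38a1, Slc1a5, Slc38a2 and Slc7a6 did not pass the test. A gene was tested where its mean over the 8 libraries was at least 1 RPKM (reads per kilobase of gene and per 1000000 reads), with limma on log2(RPKM + 0.1) and Benjamini-Hochberg adjustment over the 6512 genes that met this, and called at an adjusted p under 0.05. Of the 8 members tested, 4 were called higher and 0 lower. Over all genes tested 4.27% were called higher and 1.01% lower. The median log2 fold change was 0.44 over the 8 members and 0.01 over all genes tested. As the members were chosen with earlier results known, neither their counts nor their median are independent evidence of a direction. Slc7a3 passed the minimum only through its Sel1l CKO values, so its place among the 8 is not independent of its difference, and Slc1a4 and Slc7a11 fell under it. In bulk RNA, fewer cells with a transcript and less transcript per cell cannot be told apart.

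The libraries were deep, with 32900253 to 50401359 reads counted on genes. Sel1l itself had RPKM values of 1.83, 1.66, 1.61 and 1.57 in Ctrl replicates 1 to 4, and the Sel1l CKO libraries had 0.917, 0.876, 1.32 and 1.23 in the same order of number. Its log2 fold change was -0.59 (SE 0.13, limma adjusted p = 0.0327), and the reads cover the whole gene, deleted exons included. All 12 DN3 markers, among them Il2ra, Ptcra and Rag1, were expressed, with 0 called in either direction. Their summed level was 726.0 to 797.4 RPKM in Ctrl and 657.7 to 684.1 RPKM in Sel1l CKO, ranges that did not overlap. Their median log2 fold change was -0.22, with 1 of 12 above 0. For 3 of them (Cd3e, Cd3g and Notch3) every Sel1l CKO library was below every Ctrl library, as for 5.59% of all genes tested. Marker lists of other cells had lower sums than the DN3 list: summed RPKM was 8.22 to 10.2 in Ctrl and 5.31 to 8.22 in Sel1l CKO for B cells, 16.5 to 19.5 and 12.4 to 15.3 for myeloid and dendritic cells, 1.47 to 1.7 and 1.61 to 2.27 for NK and γδ T cells, 0.374 to 0.43 and 0.215 to 0.395 for DN1 and DN2 cells, 0.0594 to 0.2 and 0.0663 to 0.181 for stroma, and 0.0 to 1.12 and 0.465 to 2.66 for erythroid cells. Of these lists 1 NK marker and 1 erythroid marker were at 0 in every library. The myeloid ranges did not overlap. Lyz2 of that list was called lower on recovered reads (log2 fold change -1.0, limma voom adjusted p = 0.0452), where 1.4% of all genes were. The part of other cells in the differences below was not tested. For 11 genes that mark cells after β-selection the sums were 47.7 to 106.2 RPKM in Ctrl and 38.1 to 54.3 RPKM in Sel1l CKO, with 0 called.

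The stretch at the RefSeq gene start is shown for 4 carriers that were higher in Sel1l CKO or barely read in Ctrl, because CARE, the element that ATF4 binds, is placed there in some of them. The sequences are from RefSeq (GRCm38.p6), 150 bases each on the minus strand, at chr3:50443614-50443763 for Slc7a11, chr11:20332706-20332855 for Slc1a4, chr19:8713898-8714047 for Slc3a2 and chr5:148399905-148400054 for Slc7a1. Capitals mark matches to CARE, spelled TGATGNAA, on either strand. The RefSeq start of Slc3a2 lies within the span that GENCODE M21 gives the gene.
Slc7a11: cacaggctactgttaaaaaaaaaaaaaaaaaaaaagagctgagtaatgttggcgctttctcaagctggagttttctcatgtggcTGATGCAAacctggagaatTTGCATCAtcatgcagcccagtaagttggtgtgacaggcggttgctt
Slc1a4: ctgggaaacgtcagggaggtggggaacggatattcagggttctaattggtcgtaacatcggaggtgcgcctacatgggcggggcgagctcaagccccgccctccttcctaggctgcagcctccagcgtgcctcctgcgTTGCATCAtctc
Slc3a2: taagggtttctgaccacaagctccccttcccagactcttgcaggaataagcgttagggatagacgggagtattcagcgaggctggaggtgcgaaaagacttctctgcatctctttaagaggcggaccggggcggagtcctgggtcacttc
Slc7a1: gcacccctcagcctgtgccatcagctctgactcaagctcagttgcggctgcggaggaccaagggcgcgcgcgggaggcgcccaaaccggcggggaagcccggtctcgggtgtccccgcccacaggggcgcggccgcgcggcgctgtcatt
The Slc7a11 stretch held CARE at -66 to -59 from the RefSeq start as written and again at -47 to -40 as its reverse complement. In Slc1a4 the match ran across the start, from -4 to 4, as the reverse complement. No match stood in the windows of Slc3a2 and Slc7a1.

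Windows of 300 bases (250 before and 50 after the start) were at hand for 6 of the 10 members, Slc7a11, Slc7a1, Slc7a6, Slc1a4, Slc38a2 and Slc3a2, in 8 windows. Slc7a3, Slc7a5, Slc1a5 and Slc38a1 had none. CARE was in 2 of these 6 genes, against 3.97% of all 32851 windows, and in 4 of 16 genes of the ATF4 pathway list (Atf3, Chac1, Nupr1 and Trib3) and 3 of 17 of the amino acid synthesis list (Asns, Got1 and Pycr1). A gene was counted if any of its windows matched, while the shares over all are per window, so the units differ. The unfolded protein response element, searched as TGACGTGG on both strands, was in 0.68% of all windows and in Slc7a6 alone among the members, at chr8:106168853-106168860. The cAMP response element TGACGTCA (1.79% of all windows), which shares its first 6 letters with it, the E-box CACGTG (7.15%) and the ER stress element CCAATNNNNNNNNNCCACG (0.12%) matched in no member. In no member did 2 motifs match at the same place. These are matches of letters only, and binding was not measured.

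Slc7a3, the cationic carrier CAT3, had the largest difference of the members (chrX:101079210-101086020, minus strand). In Ctrl replicates 1 to 4 it stood at 0.148, 0.043, 0.096 and 0.0973 RPKM, from 41, 14, 23 and 25 reads. In Sel1l CKO replicates 1 to 4 it stood at 1.04, 5.29, 2.57 and 2.67 RPKM, from 269, 1817, 577 and 599 reads. Every Sel1l CKO library was above every Ctrl library, and replicate 2 was the highest. The mean went from 0.0961 ± 0.0429 to 2.9 ± 1.76 RPKM (SD, n = 4 each), a ratio of 30.1. The log2 fold change was 3.76 (SE 0.40, limma adjusted p = 5.1e-04) and the gene was called in each of the 8 fits that left out 1 library. The added 0.1 RPKM is as large as the Ctrl level, so the fold depends on it: with 1 RPKM added the log2 fold change was 1.72, and limma voom on the recovered reads gave 4.89 (SE 1.05, adjusted p = 0.0259).

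Slc7a1, the ubiquitous cationic carrier CAT1, rose less (chr5:148327410-148399904, minus strand). It was at 2.43, 2.06, 2.01 and 2.1 RPKM in Ctrl and at 2.87, 5.2, 3.38 and 3.35 RPKM in Sel1l CKO, so the groups did not overlap but Sel1l CKO replicate 1 stood close to the highest Ctrl library. The means were 2.15 ± 0.193 and 3.7 ± 1.02 RPKM (SD, n = 4 each), with a log2 fold change of 0.72 (SE 0.16, limma adjusted p = 0.0342). This call was lost when any 1 of the 4 Ctrl libraries (adjusted p from 0.0575 to 0.0949) or Sel1l CKO replicate 3 (0.0624) or 4 (0.0545) was left out, and with all genes tested (0.103). The change of Slc7a3 relative to Slc7a1 was tested on log2(RPKM + 0.1), where the difference Slc7a3 minus Slc7a1 was -3.54 ± 0.25 in Ctrl and -0.51 ± 0.6 in Sel1l CKO (SD, n = 4 each). The change of 3.03 had an exact two-sided permutation p of 0.0286, the smallest that 4 against 4 libraries allow, and an adjusted p of 0.0429 over the 6 pairs of carriers compared. On reads, with nothing added, the change was 4.07 and its adjusted p 0.0571 (exact permutation), over the threshold.

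**Figure D1:**
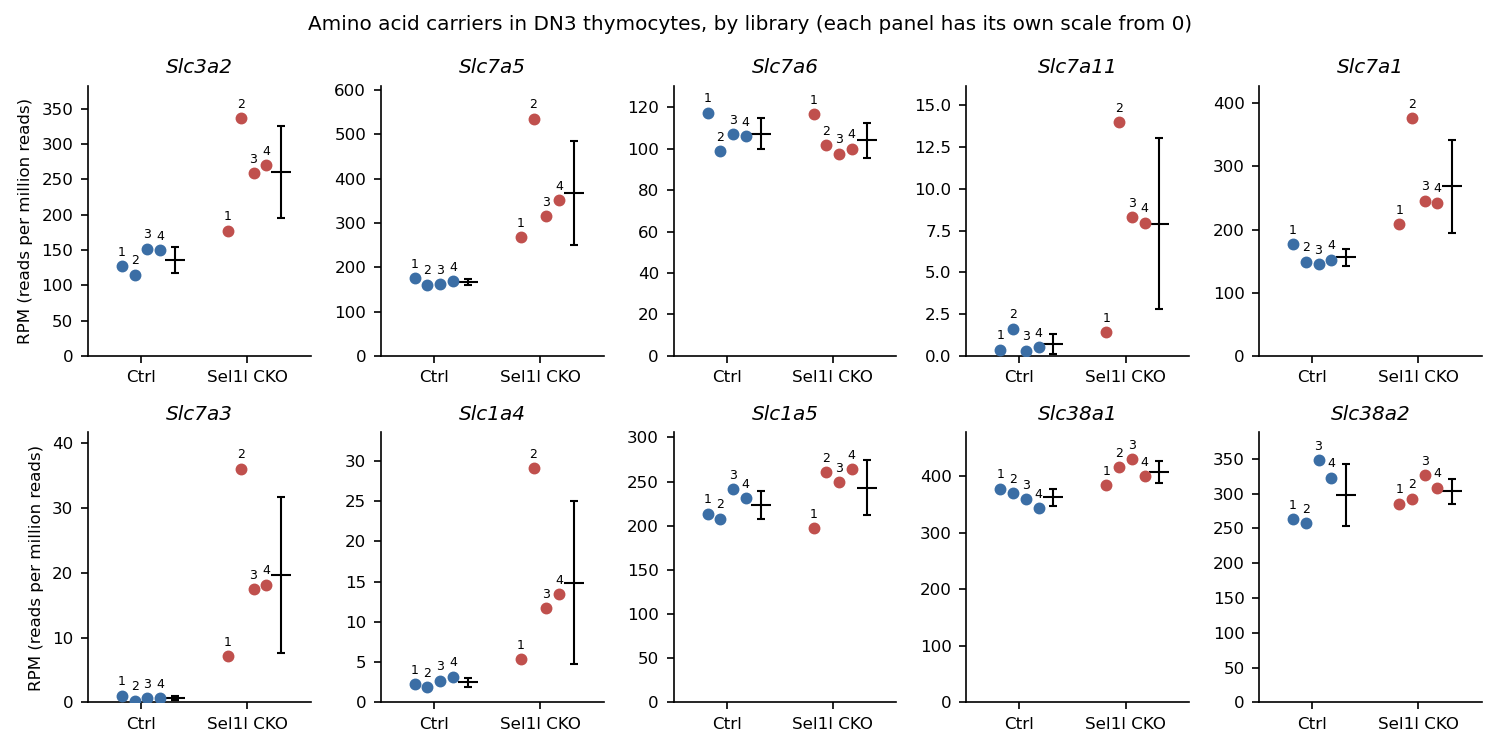
Reads per 1000000 reads (RPM) of the 10 carriers in each library, with Ctrl in blue and Sel1l CKO in red, the replicate number above each point, and the mean with its SD (n = 4) in black. Each panel has its own linear axis from 0. The red points of Slc3a2, Slc7a5, Slc7a1, Slc7a3, Slc1a4 and Slc38a1 lie above all blue points, and Sel1l CKO replicate 2 is the highest in the first 5 of these and in Slc7a11.

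Slc3a2 (chr19:8706882-8723369, minus strand), the heavy chain, was at 7.71, 6.97, 9.2 and 9.07 RPKM in Ctrl and at 10.8, 20.4, 15.7 and 16.4 RPKM in Sel1l CKO. All Sel1l CKO libraries were above all Ctrl libraries. The means were 8.24 ± 1.08 and 15.8 ± 3.95 RPKM (SD, n = 4 each), and the log2 fold change was 0.90 (SE 0.18, limma adjusted p = 0.0188). The call was lost without Ctrl replicate 1 (0.0629), Ctrl replicate 2 (0.0592) or Sel1l CKO replicate 3 (0.0509), and with all genes tested (0.0791).

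Slc7a5 (LAT1), the main leucine carrier of growing T cells (chr8:121881150-121907694, minus strand), was nearly level among the Ctrl libraries at 6.58, 6.07, 6.11 and 6.34 RPKM. In Sel1l CKO it was at 10.1, 20.2, 11.9 and 13.2 RPKM, again with no overlap and with replicate 2 on top. The mean rose from 6.28 ± 0.235 to 13.8 ± 4.41 RPKM (SD, n = 4 each), with a log2 fold change of 1.08 (SE 0.18, limma adjusted p = 0.00815) and a call in each fit without 1 library. Slc7a6 (y+LAT2, chr8:106168857-106198706, plus strand), a light chain of the same heavy chain, was at 3.93, 3.31, 3.59 and 3.55 RPKM in Ctrl and at 3.91, 3.41, 3.27 and 3.35 RPKM in Sel1l CKO. Its groups overlapped, and its log2 fold change was -0.04 with a 95% confidence interval of -0.23 to 0.14 (limma adjusted p = 0.783). The difference between these light chains was tested as well: log2 of Slc7a5 over Slc7a6 went from 0.79 ± 0.06 to 1.91 ± 0.49 (SD, n = 4 each; exact two-sided permutation p = 0.0286, adjusted over the 6 pairs 0.0429). On reads the adjusted p was 0.0571 (exact permutation), over the threshold, and the groups again did not overlap. For Slc7a5 and its heavy chain, log2 Slc7a5 over Slc3a2 changed by 0.17 (exact two-sided permutation p = 0.2), with groups that overlapped over all libraries. Within replicates 1 and 2, and within replicates 3 and 4, each Sel1l CKO value was above each Ctrl value. The changes there were 0.16 and 0.19, and were not tested. Whether the 2 genes differ in their change is thus not settled.

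Slc7a11 (xCT, chr3:49892526-50443614, minus strand), the cystine carrier that feeds glutathione synthesis, had few reads. There were 15, 78, 11 and 20 reads in Ctrl replicates 1 to 4 and 54, 708, 273 and 263 in Sel1l CKO replicates 1 to 4. Per 1000000 reads (RPM) this was 0.369, 1.63, 0.313 and 0.53 against 1.43, 14.0, 8.3 and 7.99. Sel1l CKO replicates 2, 3 and 4 were far above every Ctrl library, while Sel1l CKO replicate 1 lay under Ctrl replicate 2, so the groups overlapped (exact two-sided permutation p = 0.0571). The ratio of the means was 11.2. On the recovered reads limma voom gave a log2 fold change of 3.38 (SE 1.1, adjusted p = 0.115), and 4.08 (adjusted p = 0.00216) without Sel1l CKO replicate 1. The deposited RPKM divides by the whole gene of 551089 bases, 39.6 times its exons, so each Slc7a11 RPKM value is below the 0.1 that was added. For that reason log2 Slc7a11 over Slc3a2 changed by -0.73 on RPKM plus 0.1 (exact permutation p = 0.0286), by 0.11 with 0.01 added and by 2.51 on reads (exact permutation p = 0.0571), and its direction is set by the scale.

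The 3 light chains together were set against the heavy chain per exon length (exon RPKM, reads per kilobase of exons and per 1000000 reads), the scale on which genes can be compared. Their summed level over that of Slc3a2 was 2.02, 2.0, 1.56 and 1.62 in Ctrl replicates 1 to 4 and 1.94, 1.76, 1.46 and 1.53 in Sel1l CKO replicates 1 to 4. The ratio thus had overlapping ranges over all libraries. Within replicates 1 and 2, and within replicates 3 and 4, each Sel1l CKO ratio was below each Ctrl ratio, which was not tested. Both levels were higher in each Sel1l CKO library, at 65.2 to 72.8 against 97.7 to 167.5 for the light chains. For Slc3a2 they were 32.6 to 43.0 against 50.3 to 95.3.

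**Figure D2:**
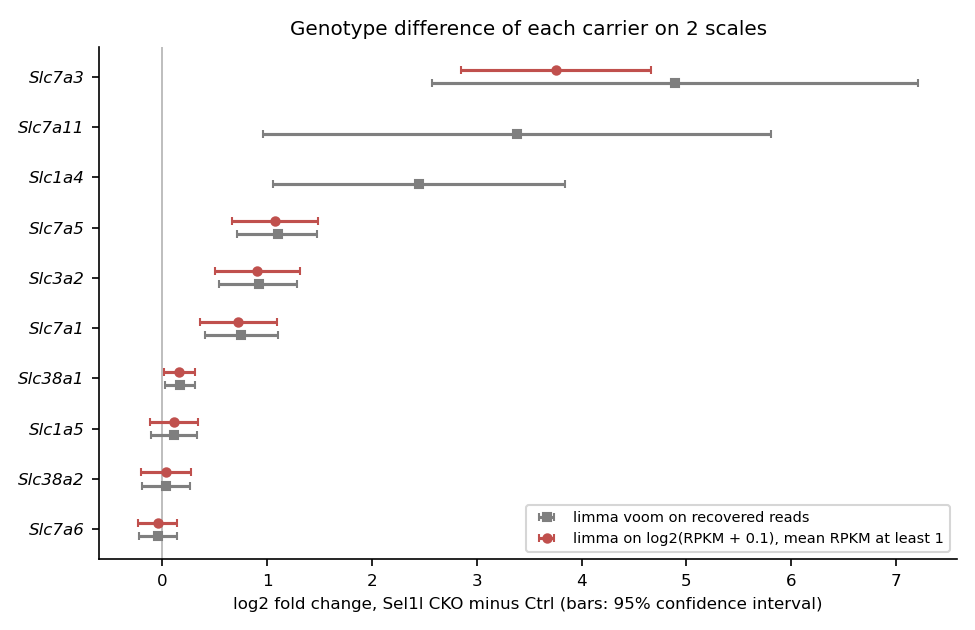
Log2 fold change of each carrier, Sel1l CKO minus Ctrl, with its 95% confidence interval, from limma on log2(RPKM + 0.1) for the 8 tested genes (red) and from limma voom on recovered reads for all 10 (grey). Slc7a3 is farthest right on either scale (3.76 and 4.89), and the intervals of Slc1a5, Slc38a2 and Slc7a6 include 0.

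Slc1a4 (ASCT1, chr11:20302180-20332713, minus strand), which exchanges alanine, serine and cysteine, was also near its floor in Ctrl. It had 91, 89, 94 and 120 reads in Ctrl, or 0.0733, 0.061, 0.0875 and 0.104 RPKM. It had 202, 1469, 384 and 440 reads in Sel1l CKO, or 0.175, 0.955, 0.382 and 0.438 RPKM. All Sel1l CKO libraries were above all Ctrl libraries (exact two-sided permutation p = 0.0286), with a ratio of the means of 5.98. As its mean was under 1 RPKM it was not tested in the fit above. On recovered reads limma voom gave a log2 fold change of 2.45 (SE 0.63, adjusted p = 0.0552), which missed the threshold and met it without Sel1l CKO replicate 1 (2.87, adjusted p = 0.0062) or replicate 2 (1.93, adjusted p = 0.0227), and limma on RPKM per exon length gave 2.19 (SE 0.41, adjusted p = 0.0126). On the read-based fit 2.93% of 11380 genes were called higher, and on the exon-length fit 3.54% of 9565.

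Slc1a5 (ASCT2, chr7:16781340-16798274, plus strand), the glutamine exchanger, was at 12.6, 12.3, 14.3 and 13.7 RPKM in Ctrl and at 11.7, 15.4, 14.7 and 15.6 RPKM in Sel1l CKO. Sel1l CKO replicate 1 was the lowest of all 8 libraries and the groups overlapped. The log2 fold change was 0.11, with a 95% confidence interval of -0.12 to 0.34 (limma adjusted p = 0.558). Within the SLC1 pair, log2 of Slc1a4 over Slc1a5 on RPKM plus 0.1 went from -6.2 ± 0.09 to -4.78 ± 0.65 (SD, n = 4 each; exact two-sided permutation p = 0.0286, adjusted over the 6 pairs 0.0429). On reads without the added 0.1, which is above the Ctrl mean of Slc1a4 (0.0815 RPKM), the same change was 2.24. Its adjusted p was 0.0571 (exact permutation), over the threshold. The adjusted 0.0429 of these pairs rests on 4 of the 6 pairs at the smallest p. Of these, 1 is Slc7a11 and Slc3a2, whose direction is set by the scale.

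The sodium-coupled SLC38 carriers are both on chromosome 15. Slc38a1 (SNAT1, chr15:96571418-96642913, minus strand) was at 5.28, 5.18, 5.03 and 4.8 RPKM in Ctrl and at 5.37, 5.82, 6.01 and 5.6 RPKM in Sel1l CKO. The ranges did not overlap, but by a narrow gap. Its log2 fold change of 0.16 (95% confidence interval 0.02 to 0.31) missed the threshold after adjustment (limma adjusted p = 0.18). Of the 8 members tested 5 had every Sel1l CKO library above every Ctrl library, and over all genes tested 9.15% had.

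Slc38a2 (SNAT2, chr15:96687392-96699730, minus strand), whose gene is known to respond to amino acid shortage, was at 21.4, 20.9, 28.3 and 26.2 RPKM in Ctrl and at 23.2, 23.8, 26.5 and 25.0 RPKM in Sel1l CKO. The Sel1l CKO values all lay within the Ctrl range. The log2 fold change was 0.04, with a 95% confidence interval of -0.20 to 0.27 (limma adjusted p = 0.872). Ctrl replicates 3 and 4, which were the highest for Slc38a2 in Ctrl, were also the highest for the heat shock gene Hspa1a, at 460.5 and 1059.0 RPKM against 50.5 and 16.1 in Ctrl replicates 1 and 2 and 2.14 to 7.18 in Sel1l CKO. Over the 10 inducible heat shock genes the summed level was 1368.2 to 4335.2 RPKM in Ctrl and 1191.8 to 1352.0 RPKM in Sel1l CKO, and 4 of 8 tested were called lower. Its part in the Slc38a2 values was not tested. The change of log2 Slc38a2 over Slc38a1 was -0.13 (exact two-sided permutation p = 0.429).

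Levels of the genes were ordered per exon length. In Ctrl the order was Slc1a5 at 53.6 ± 3.7, Slc7a5 at 44.9 ± 1.68, Slc3a2 at 38.5 ± 5.05, Slc38a2 at 33.7 ± 5.05, Slc7a6 at 23.5 ± 1.67, Slc38a1 at 21.1 ± 0.871 and Slc7a1 at 13.5 ± 1.22 exon RPKM (SD, n = 4). Slc1a4 at 0.634 ± 0.145, Slc7a3 at 0.173 ± 0.0772 and Slc7a11 at 0.0511 ± 0.0446 followed far below. Neighbours overlapped for Slc3a2 and Slc38a2, Slc7a6 and Slc38a1, and Slc7a3 and Slc7a11. In Sel1l CKO, Slc7a5 at 99.0 ± 31.6, Slc3a2 at 73.8 ± 18.5 and Slc1a5 at 58.2 ± 7.44 came first, and Slc7a5 overlapped Slc3a2 as Slc3a2 did Slc1a5. Slc38a2 at 34.3 ± 2.07 stood apart, and Slc38a1 at 23.7 ± 1.15, Slc7a1 at 23.3 ± 6.44 and Slc7a6 at 22.7 ± 1.88 overlapped. Slc7a3 at 5.21 ± 3.17 and Slc1a4 at 3.79 ± 2.58 overlapped, and Slc7a11 was last at 0.57 ± 0.371. The highest mean was thus that of Slc1a5 in Ctrl and of Slc7a5 in Sel1l CKO, and the 3 carriers with the largest ratios were the rarest in each genotype. The summed level of the 10 genes in RPM was 1453.7, 1363.8, 1518.8 and 1478.2 in Ctrl and 1650.3, 2398.3, 1958.8 and 1976.9 in Sel1l CKO.

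The Sel1l CKO libraries differed among themselves in a recurrent order. Replicate 2 was the highest of the 4 in 6 of the 10 carriers, and replicate 1 was the lowest in 9. The highest Sel1l CKO library exceeded the lowest 9.85 times for Slc7a11, 5.46 times for Slc1a4 and 5.08 times for Slc7a3, against 2.0, 1.89 and 1.81 times for Slc7a5, Slc3a2 and Slc7a1 and 1.12 to 1.34 times for the other 4. Sel1l did not follow this order, since replicates 1 and 2 had its lowest values among the Sel1l CKO libraries. The libraries differed in depth, and replicate 2 was also the deepest, at 50401359 reads, while replicates 3 and 4, the shallowest at 32909477 and 32900253 reads, lay between replicates 1 and 2 for the 3 rare carriers. A relation with depth was not tested.

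**Figure D3:**
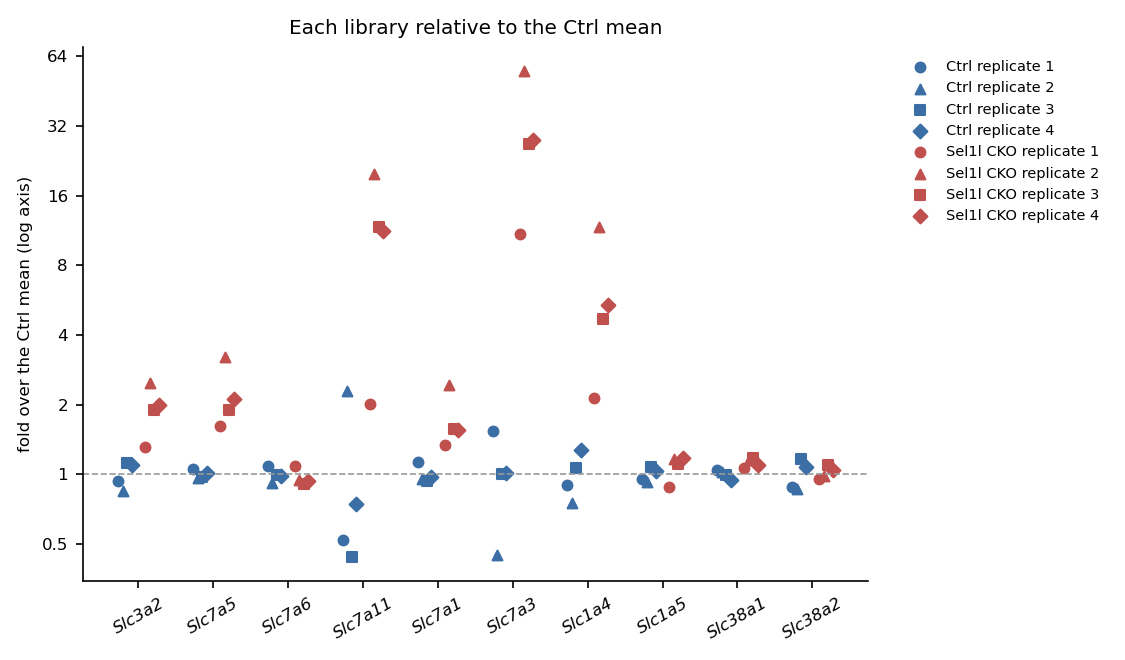
Each library divided by the Ctrl mean of the same gene, on a log axis, with Ctrl in blue and Sel1l CKO in red and 1 marker shape per replicate number. Sel1l CKO replicate 2 reaches 55.1 times the Ctrl mean for Slc7a3, 19.8 for Slc7a11 and 11.7 for Slc1a4, where replicate 1 is at 10.9, 2.01 and 2.14.

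Genes that varied over the libraries as the carriers did were looked for among all genes tested, by Pearson's r between each gene's deviations from its own genotype mean and the mean deviation of the 8 tested members, over the 8 libraries and with no p. The 10 with the highest r were Trib3 (0.986), Cyb5r1 (0.985), Sla (0.978), Phf10 (0.978), Nars (0.973), Asns (0.967), Mcub (0.95), Katna1 (0.95), Cars (0.949) and Rasgrp1 (0.948). The points share libraries and depth. The mean deviation was -0.34 in Sel1l CKO replicate 1 and 0.33 in replicate 2, and -0.14 to 0.06 in the other libraries. So r rests mainly on Sel1l CKO replicates 1 and 2. The members were averaged without scaling, so Slc7a3, which spread most among the 8, weighs most. Trib3 and Asns met the minimum only through Sel1l CKO. Of these genes Trib3 (log2 fold change 4.39, adjusted p = 5.8e-04), a pseudokinase induced with ATF4, Asns (4.36, adjusted p = 2.3e-04), asparagine synthetase, the aminoacyl-tRNA synthetases Nars (1.0, adjusted p = 0.00246) and Cars (1.11, adjusted p = 0.0102), and Phf10 (0.62, adjusted p = 0.0441) were also called higher in Sel1l CKO by limma. The other 5 were not. On recovered reads Trib3 missed the threshold (limma voom adjusted p = 0.0587), and Asns met it (limma voom adjusted p = 0.0125). The mean over the members was followed most closely by Slc7a3 (r = 0.99), Slc3a2 (0.94), Slc7a5 (0.92) Slc7a1 (0.88) and Slc1a5 (0.81), and least by Slc38a1 (0.43), Slc38a2 (0.23) and Slc7a6 (-0.32). Each of these genes is itself 1 of the 8 averaged.

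The genes around the carriers differed by list. Over all genes tested 4.27% were called higher and 1.01% lower. Of the ATF4 pathway list, 7 of 12 tested genes were called higher and 0 lower, with a median log2 fold change of 0.74. Of these 7, 4 (Trib3, Chac1, Sesn2 and Eif2ak3) had a Ctrl mean under 1 RPKM and met the minimum only through Sel1l CKO. Tested but not called were Cebpg (log2 fold change 0.29), Ppp1r15b (0.23), Cebpb (-0.01), Ddit4 (-0.18) and Ppp1r15a (-0.82). Atf4 itself went from 114.7 ± 15.8 to 213.1 ± 11.5 RPKM (SD, n = 4 each; log2 fold change 0.90, limma adjusted p = 5.8e-04). Chac1, which breaks down glutathione, went from 7, 0, 0 and 0 reads in Ctrl to 240, 432, 361 and 268 reads in Sel1l CKO. The other 5 called were Trib3, Atf5 (2.98), Sesn2 (1.39), Ddit3, which encodes CHOP (1.34), and Eif2ak3, which encodes PERK (0.58), with log2 fold changes in brackets. Of the enzymes of amino acid and one-carbon synthesis 9 of 15 were called higher and 0 lower, with a median of 0.46. Asns met the minimum only through Sel1l CKO. The largest among those tested were Asns, from 0.108 ± 0.042 to 4.85 ± 3.23 RPKM, Bcat2 (1.24), Mthfd2 (1.06), Psat1 (0.92), Aldh18a1 (0.90) and Shmt2 (0.89). On recovered reads 14 of 22 were called higher and 0 lower (limma voom), against 2.93% of all genes called higher. Among the 14 were Aldh1l2 (6.64), Cth (5.71), Pycr1 (2.43), Gpt2 (2.29) and Bcat1 (2.21), which were under the minimum. Each of these lists was drawn up with earlier results of these data known, so its count is no independent evidence of its direction.

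Further carriers were compared in the same fits. Of 21 further plasma-membrane amino acid carriers in the table only 4 passed the minimum, 0 were called, and their median log2 fold change was 0.08. With 4.27% of all tested genes called higher, 0 of 4 says little. By limma they were Slc38a10 (0.24, adjusted p = 0.212), Slc43a1 (0.17, 0.394), Slc6a6, the taurine carrier (-0.02, 0.903) and Slc43a2 (-0.52, 0.0978). Slc6a9, the glycine carrier GLYT1, was under the minimum and was picked out after its values were seen. It had 32, 39, 36 and 41 reads in Ctrl and 161, 1624, 549 and 625 in Sel1l CKO. The ratio of its mean RPKM was 19.4, and replicate 2 was again the highest and replicate 1 the lowest of the Sel1l CKO libraries. On reads its adjusted p was 0.0641 (limma voom, log2 fold change 4.02), and per exon length it was 0.00273 (limma, 3.40).

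Carriers inside the cell and of other nutrients were not called in the fit on RPKM. Over all genes tested 4.27% were called higher and 1.01% lower, so lists this small can hold 0 calls at those shares. Of the mitochondrial amino acid carriers 0 of 7 were called (median -0.01), and of the carriers of glucose, lactate, vitamins, metals, nucleosides and others 0 of 11 (median 0.10). Of the lysosomal carriers 1 of 7 passed the minimum, Slc15a4, with a log2 fold change of -0.06 (limma adjusted p = 0.758). On recovered reads, where 1.4% of genes were called lower, Slc38a9, the lysosomal arginine sensor, fell by 0.77 on the log2 scale (limma voom adjusted p = 0.0372), from 1819, 1531, 1616 and 1459 reads to 757, 923, 963 and 998. This call was lost per exon length (-0.7, limma adjusted p = 0.0772). Slc5a3, the myo-inositol carrier, fell by 1.17 (limma voom adjusted p = 0.0138), and was called per exon length too (-1.05, limma adjusted p = 0.0338). Of the genes that sense amino acids for mTORC1 3 of 19 rose (median -0.02): Sesn2, a leucine sensor, Sec13 (0.40, limma adjusted p = 0.0145), a coat protein of COPII vesicles and part of GATOR2, and Lamtor2 (0.25, limma adjusted p = 0.0432), part of the Ragulator complex. On recovered reads Lamtor2 missed the threshold (limma voom adjusted p = 0.0778). Of the glutathione genes only Chac1 rose, among 7 tested (median -0.02), and it was tested only through its Sel1l CKO values, as Sesn2 was. Gclc (-0.19, limma adjusted p = 0.167) and Gclm (0.22, limma adjusted p = 0.408), the subunits of the rate-limiting enzyme, did not pass. Of 15 proliferation genes 0 were called, with a median of 0.09.

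**Figure D4:**
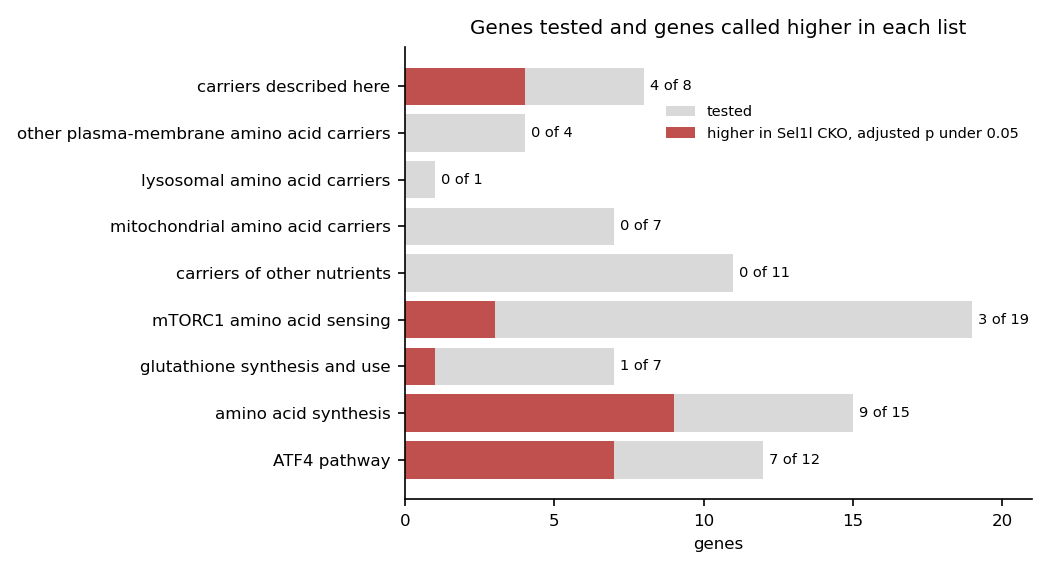
Genes tested (grey, whole bar) and genes called higher in Sel1l CKO (red; limma, adjusted p under 0.05) in each list. The 10 carriers (4 of 8), amino acid synthesis (9 of 15) and the ATF4 pathway (7 of 12) hold 4 or more called genes. The 4 other carrier lists hold none. With 4.27% of all tested genes called higher, 0 calls in lists this small say little. Chac1 and Sesn2 stand in 2 lists each.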

How the data were processed

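DN3 thymocyte RNA-seq of 4 Ctrl and 4 Sel1l CKO libraries was grouped by the genotype in the labels, which do not say whether each library is 1 mouse, so p values measure the spread between libraries. The authors made stranded mRNA libraries, aligned them with STAR 2.5.2b to GRCm38, counted them with HTSeq 2.7 on protein-coding genes, and deposited values in RPKM. Their count-based test was not repeated here. These RPKM values divide by gene length with introns (GENCODE M21): low values were whole reads within 0.05 read for 76.7% of genes with a value, against 4.3% with exon length. With 2887 lengths solved from the values (Slc7a6, Slc1a5 and Slc38a2 among them), reads were recovered for 95.2%, 32900253 to 50401359 per library. This depth limits genes with few reads.

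RPKM values plus 0.1 were analysed as log2 with limma 3.58.1 (R 4.3.3, trend, genotype only, Benjamini-Hochberg). limma voom used genes with at least 10 reads on average. In simulated data with 200 changed genes, drawn with the same relative spread for every gene, both recovered the changes. The spread seen among the Sel1l CKO libraries and the members under the minimum were not simulated, so this says nothing on them. Pairs of carriers were compared by exact permutation over 70 assignments. Members, pairs and lists were chosen with earlier results of these data known, and 18 listed genes had no matching name in the table. Named were all members, the called genes of each list (up to 6), and the 10 genes most like the members. Alternatives changed the pseudocount, filter, scaling, model and libraries. The exon-length fit and the pairs on reads were chosen after seeing the data. Python 3.11.15 was used for counts and figures.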

Additional observations from a re-analysis of the deposited data

Results flagged for a closer look

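Ctrl replicate 2 stood apart from the other Ctrl libraries for Slc7a11, at 0.00296 RPKM against 0.000567 to 0.000962 RPKM in the other 3. The gap to its neighbour was 0.835 of the group's range, past Dixon's 95% limit for 4 libraries. These are 78 reads against 15, 11 and 20. Over 34 groups of 4 values looked at, chance flags about 1.7, and 1 was found. Without this library limma voom gave a log2 fold change of 3.95 for Slc7a11 (adjusted p = 0.19), against 3.38 (adjusted p = 0.115) with it.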

How the results depend on the processing

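Of the members, 4 were called higher, and this became 2 with a minimum mean of 5 RPKM or with no minimum, 1 with replicates 1 and 2 only, and 2 to 4 when 1 library was left out. A minimum of 5 RPKM leaves out Slc7a3 and Slc7a1. With replicates 1 and 2 only, the adjusted p was 0.0666 for Slc7a5, 0.0769 for Slc3a2 and 0.121 for Slc7a1 (2 libraries a genotype), and Slc7a3 was called in every alternative that tested it. No member was called lower under any alternative. In the 8 lists of other carriers, the ATF4 pathway, amino acid synthesis, glutathione and mTORC1 sensing, 18 genes were called higher, and 10 with a minimum of 5 RPKM, while 0 were called lower, against 1 with a term for replicates 1 and 2 against 3 and 4, with array weights or with exon length, and 2 with voom, with replicates 1 and 2 only or with replicates 3 and 4 only. With array weights Slc38a10 was also called higher (0.36, adjusted p = 0.0187). The sign turned, with no call on either side, for Slc7a6 with replicates 1 and 2 only (0.02) and for Slc38a2 with quantile normalization (-0.04), with replicates 3 and 4 only (-0.08) and with 1 library left out (from -0.03 to 0.11). Slc38a2 over Slc38a1 turned to 0.06 with replicates 1 and 2 only, and Slc7a11 over Slc3a2 to 0.11 with 0.01 added and to 2.51 on reads. Where not stated above, the cause was not tested. Same-numbered libraries of the genotypes did not pair by number: their deviations correlated at 0.16, 0.1, 0.44 and 0.01. Not every library correlated best with its own number. Ctrl replicates 1 and 2 were at 0.1 to 0.29 with Sel1l CKO replicates 1 and 2. With Sel1l CKO replicates 3 and 4 they were at -0.25 to -0.22. Ctrl replicate 3 was at -0.38 and -0.36 with Sel1l CKO replicates 1 and 2 and at 0.44 and 0.4 with 3 and 4. Ctrl replicate 4 was at -0.08 to 0.09. With a term for replicates 1 and 2 against 3 and 4, 4 members were called higher and 0 lower. With the replicate number as a block, 3 members were called higher and 0 lower, Slc7a1 having an adjusted p of 0.0502, 16 genes of those 8 lists were called higher and 0 lower, and no other member's call changed. Depth limits Slc7a11, Slc7a3 and Slc1a4, which had 11 to 120 reads in Ctrl.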
